A study of Mus musculus with 11 samples.

Results

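Mural cells wrap the outside of blood vessels: pericytes sit in the wall of capillaries and venules, and vascular smooth muscle cells (VSMC) form the contractile coat of arteries, arterioles and veins. Both kinds carry the PDGF receptor beta (Pdgfrb), which endothelial PDGF-B engages to hold them on the vessel. Pericytes of many organs express the regulator of G-protein signalling Rgs5 and the subunits Kcnj8 and Abcc9 of an ATP-sensitive potassium channel, whereas VSMC express smooth muscle myosin (Myh11) and the actin and calcium machinery of contraction, which the myocardin and serum response factor pair drives. In fat, both have been weighed as sources of new adipocytes beside the Pdgfra-positive fibroblast-like cells that include the adipose stem cells (ASC).

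Of the 3261 cells deposited, 97 were mural cells. A cell was a member when it had Pdgfra below 20 and Pdgfrb at 20 or more CPM (the usual library-size-scaled read count, that is, a gene's reads scaled by the cell's total over all mouse genes, spike-ins left out). It counted as a Myh11 cell with Myh11 at 50 CPM or more, which took priority, and as a pericyte with Rgs5 at 50 CPM or more together with Kcnj8 or Higd1b at 10 CPM or more. This gave 34 pericytes and 63 Myh11 cells. The members were thus chosen by the measured levels of these 6 genes, whose values are given as a description and were not tested. The comparison cells were the 2128 Pdgfra-positive cells (Pdgfra at 20 CPM or more) and, for background, 539 endothelial cells (EC).

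They were single cells from perigonadal white fat (pgWAT), taken from its stromal vascular fraction in male and female mice of the C57BL6/J strain, aged 12 to 20 weeks and all carrying a Pdgfrb-eGFP transgene that makes cells with an active Pdgfrb promoter green. CD45-negative cells were sorted by GFP, CD31 and DPP4 onto 11 plates from 7 mouse identifiers (mouse 6/7 pooled 2 animals), and sequenced as full-length Smart-seq2 libraries, which count reads and not molecules. Of the 4 male plates, plates 171 (CD31-positive) and 172 (Pdgfrb-GFP-positive) came from mouse 1, plate 131 (Pdgfrb-GFP-positive) from mouse 4 and plate 344 (both gates) from mouse 8. Of the 7 female plates, 709 (GFP- and DPP4-positive), 874 (CD31-positive, GFP-negative) and 875 (GFP-positive, CD31- and DPP4-negative) came from mouse 2, 129 and 843 (GFP-positive) from mice 3 and 5, and 42 (CD31-negative, GFP-positive) and 43 (both sorts) from mouse 6/7. No group received a treatment. No cell name was shared between plates.

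Mural cells were few and unevenly spread. Plate 172 held 72 of them, 20.9% of its 344 cells, and mouse 1 held 78. Plate 874 had 11 (4.72% of 233 cells), plate 171 had 6 (2.24%), plate 843 had 3 (1.19%), plates 344 and 131 had 2 each (0.995% and 0.550%), plate 42 had 1 (0.358%), and plates 875, 129, 709 and 43 had 0. The 34 pericytes came from mouse 1 (25, of which 21 on plate 172 and 4 on plate 171), mouse 2 (8, all on plate 874, sorted as GFP-negative) and mouse 6/7 (1). The 63 Myh11 cells came from mouse 1 (53), mice 2 and 5 (3 each) and mice 4 and 8 (2 each). Only mouse 1 had at least 5 cells of both kinds, so pericytes and Myh11 cells were compared within that animal, with no test and no animal-to-animal error. Pericytes of mouse 1 (male) and mouse 2 (female) also differed in gate and plate, so that sex, animal, gate and plate cannot be told apart.

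Depth overlapped between the kinds. The pericytes had 215111 to 1880977 reads (median 814790) and the Myh11 cells 188545 to 2934015 (median 620113). After each cell was thinned to 150000 reads, the median number of genes detected was 3144.5 in pericytes and 2821 in Myh11 cells. Mitochondrial reads were 0.0537 to 2.04% in pericytes and 0.123 to 1.65% in Myh11 cells.

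The Myh11 cells were not of a single kind. Of them, 40 passed only the Myh11 limit and had Dcn, the abundant fibroblast proteoglycan decorin, below 500 CPM; these 40 cells (38 of mouse 1 and 2 of mouse 8) had Myh11 between 363 and 4220.5 CPM and are called VSMC here. A further 17 met the pericyte limits too (12 of mouse 1, 3 of mouse 2 and 2 of mouse 5), with Myh11 between 57.9 and 1508 CPM and a median of 128. The other 6 had Dcn between 894 and 14491 CPM, inside the range of Pdgfra-positive cells. Of these, 4 had at most 20.5 CPM of Acta2 (smooth muscle actin), against the name smooth muscle, and 2 had 2304 and 3397 CPM. The one at 3397 CPM also had Tagln (transgelin) at 1180 CPM and the lowest Dcn of the 6. Results of the Myh11 cells are therefore given with and without these 6 and the 17.

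Cells within 2-fold outside a limit numbered 7 for Myh11, 3 for Kcnj8 or Higd1b, 2 for Pdgfra, 1 for Pdgfrb and 0 for Rgs5. The lowest members had 57.9 and 58.9 CPM of Myh11, and the nearest cells outside had 47.5 and 38.7 CPM, with 7 cells within 2-fold below the limit. For Rgs5 the lowest pericytes had 75.4 and 148 CPM, against 10.4 and 0 CPM just outside. Pdgfrb was 23.3 and 26.3 CPM in the lowest members and 19.4 and 8.56 CPM in the nearest cells outside. Pdgfra alone kept out 45 cells, 44 of which had Dcn at 500 CPM or more, and their median Acta2 was 1.51 CPM. Of the 224 cells with Pdgfra below and Pdgfrb above the limit, 127 were no member, and 118 of these had Dcn at 500 CPM or more.

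The chosen markers themselves separated the kinds as follows. Rgs5 in the 25 pericytes of mouse 1 ran from 75.4 to 2979 CPM (median 627), in the 8 of mouse 2 from 485 to 3842 CPM (median 1318), and in the 40 VSMC from 0 to 236 CPM (median 2.91). Kcnj8 was at 10 CPM or more in all 34 pericytes and in 2 of the 40 VSMC. Higd1b, a mitochondrial protein of the hypoxia-inducible family, reached that level in 25 pericytes and 7 VSMC. Pdgfrb itself was 56.5 to 2480.2 CPM in the pericytes of mouse 1 (median 413) and 26.3 to 905 CPM in the VSMC (median 94.6).

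Genes that had no part in the choice differed between the 2 kinds, with contractile genes higher in the Myh11 cells. Of 13 pericyte markers outside the rule, 4 were more than 2.6-fold higher in the pericytes, Abcc9 and vitronectin among them, and 2 in the Myh11 cells. Across the contractile list, 26 of the 27 genes measured were more than 2.6-fold higher in the Myh11 cells of mouse 1 and 0 were higher in the pericytes. Over all 3127 genes with values in mouse 1, 657 (21.0%) were past this fold in the Myh11 cells and 517 (16.5%) in the pericytes, and the contractile count is to be read against these shares. The list's median log2 fold change (pericytes over Myh11 cells) was -3.97, beside -0.03 over all genes. With 1 animal there was no test; the fold of 2.6 is the size the study itself used for its calls.

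Acta2 is the actin of the contractile filaments. Pooled over cells it was 84.6 CPM in the pericytes of mouse 1 (95% exact Poisson interval 80.4 to 88.9) and 7255 CPM in the Myh11 cells (7225 to 7285), a log2 difference of -6.33. Such intervals cover counting error only and are far narrower than the spread between cells. Cell by cell, Acta2 was 0 to 711 CPM in the pericytes of mouse 1 (median 75.8), 0 to 523 CPM in those of mouse 2 (median 1.15), and 472 to 23897 CPM in the 40 VSMC (median 9167). The groups overlapped through 1 VSMC: 2 pericytes (523 and 711 CPM) lay above the lowest VSMC, and all lay below the next one, at 1963 CPM. Within mouse 1, the 4 pericytes of plate 171 had 0 to 1.73 CPM and the 21 of plate 172 had 24.2 to 711 CPM. Plate 172 also held most Myh11 cells, and the part of the plate was not tested. Pooled Acta2 in the 2 VSMC of mouse 8 was 19285 CPM.

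Tagln (transgelin, an actin-bundling protein) was 28.7 CPM in the pericytes and 893 CPM in the Myh11 cells of mouse 1, with cells at 0 to 332 CPM and, in VSMC, 39.7 to 2158 CPM. Cnn1 (calponin, an actin-binding brake on the myosin motor) was 1.22 and 208 CPM, reaching 10 CPM in 0 of 25 pericytes and in 30 of 40 VSMC. Mylk (the kinase that switches on smooth muscle myosin) was 81.5 and 945 CPM, Tpm2 (a tropomyosin) 66.5 and 1509 CPM, and Lmod1 (leiomodin, which seeds actin filaments) 2.44 and 156 CPM. Cald1 (caldesmon) was the single list gene short of 2.6-fold, at 115 and 298 CPM. Pericytes were not without contractile transcripts: Myl9, the regulatory myosin light chain, was at 10 CPM or more in all 25 pericytes of mouse 1, from 23.2 to 1206 CPM.

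**Figure D1:**
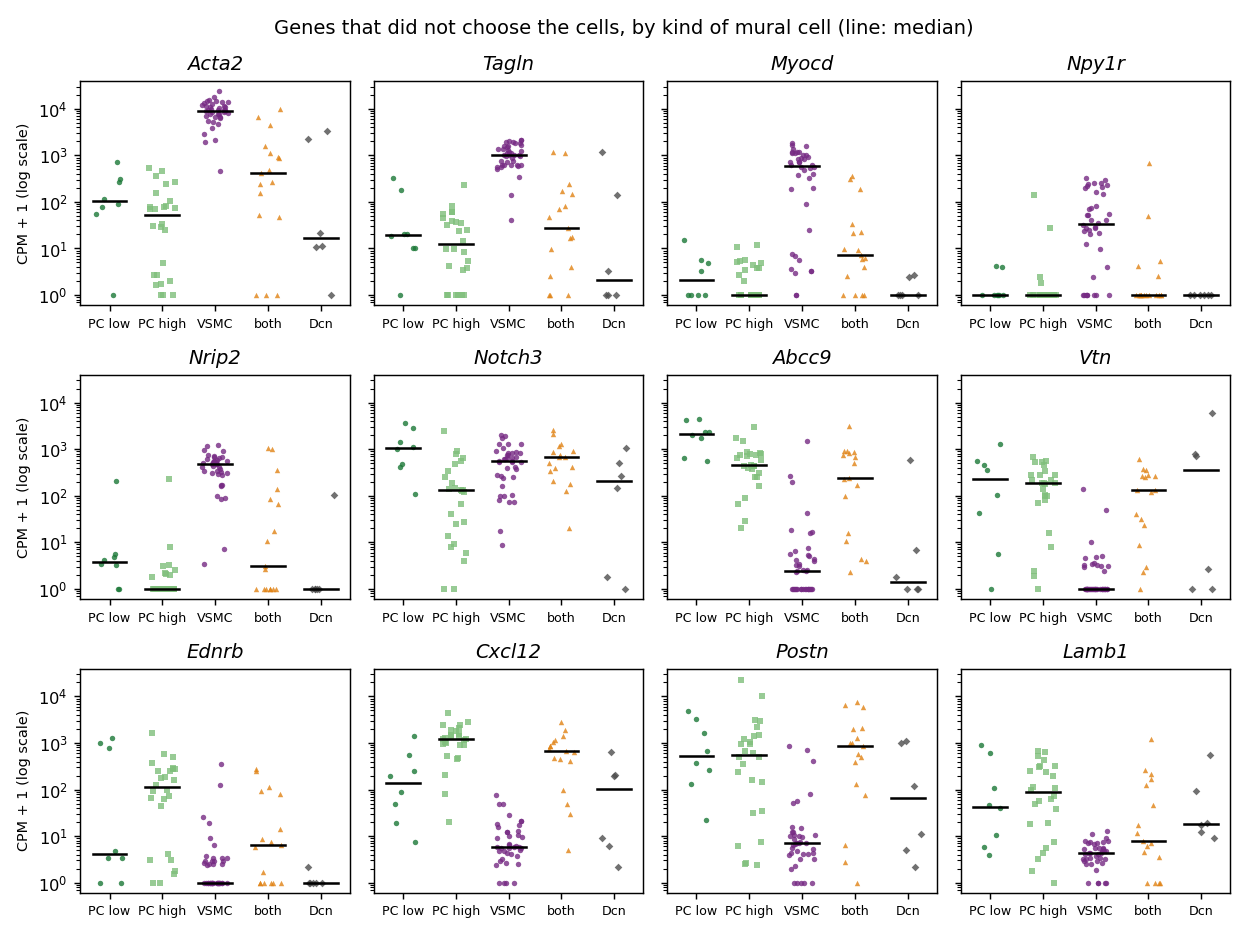
Each panel plots 1 gene in all 97 mural cells, on a log axis of CPM + 1, with each point a cell and each black line a median. PC low and PC high are the 8 pericytes with the 5 endothelial genes below 50 CPM and the 26 at 50 CPM or more, VSMC the 40 cells with Myh11 alone, both the 17 cells that met both rules, and Dcn the 6 Myh11 cells with Dcn at 500 CPM or more. Acta2, Tagln and Nrip2 sit high in VSMC, Abcc9, Vtn, Cxcl12 and Postn in pericytes, and the cells that met both rules spread over both ranges. Some cells of the Dcn group also sit high in Vtn (up to 6090 CPM) and Postn (up to 1123 CPM).

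Myocd (myocardin, the coactivator that drives contractile genes together with serum response factor) was high in most VSMC and low in pericytes. It was 2.49 CPM in the pericytes of mouse 1 (Poisson interval 1.82 to 3.33) and 462 CPM in the Myh11 cells (455 to 470), and 31 of 40 VSMC but 2 of 25 pericytes had 10 CPM or more. Myocd and Acta2 correlated across the 78 mural cells of mouse 1 (Pearson r 0.74 on log2 values, Spearman rho 0.70). Acta2 and Myh11 did so too (0.87 and 0.84). Myh11 was part of the choice that parted these cells, and both correlations run across the 2 kinds together. The cells share an animal and mostly a plate, so the values are a description. Serum response factor binds the CArG box, an element of 10 bases, and the RefSeq promoters (GRCm38.p6, 250 bases before to 50 after each start) were searched for it on both strands. It was in 535 of 32851 promoters (1.63%) and in the promoters of 488 of 27025 genes (1.81%). Of the 30 contractile genes with Myh11 included, 25 had a promoter in the table and 3 of these (12.0%) held a box, against 0 of 14 pericyte markers. The stretches around the 3 boxes are shown because the genes belong to the contractile list, with the box in capitals and 10 bases on each side:
Myl9: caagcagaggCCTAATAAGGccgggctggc
Myl6: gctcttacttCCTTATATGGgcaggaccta
Ldb3: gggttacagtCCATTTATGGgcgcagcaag

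The Myl9 stretch lies at chr2:156775293-156775322 on the + strand, between annotated genes, with the box starting 161 bases before the RefSeq start. The Myl6 stretch lies at chr10:128493040-128493069 on the - strand, 50 bases before a start and inside an annotated exon of Myl6. The Ldb3 stretch lies at chr14:34588697-34588726 on the - strand, between annotated genes, 35 and 109 bases before 2 annotated starts. Pooled levels in pericytes and Myh11 cells of mouse 1 were 375 and 3158 CPM for Myl9, 156 and 721 CPM for Myl6 (the essential myosin light chain) and 0.886 and 142 CPM for Ldb3 (a Z-line protein of striated muscle). A box in a promoter is a match of letters, and its absence elsewhere says nothing about the factor.

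Channels and calcium stores followed the same direction. Of 9 ion channels and pumps measured, 6 were past 2.6-fold in the Myh11 cells and 0 in the pericytes (median log2 -4.41), and of 8 calcium-handling genes 6 and 0 (median -2.40). Kcnmb1, the beta subunit that raises the calcium sensitivity of the large-conductance potassium channel of smooth muscle, was 0.332 CPM in pericytes and 51.4 CPM in Myh11 cells. P2rx1, the ATP-gated channel of sympathetic transmission, was 0.277 and 77.8 CPM, and was at 10 CPM or more in 24 of 40 VSMC and 0 of 25 pericytes. Kcnab1, a potassium channel beta subunit, was 0.498 CPM in pericytes on 9 reads (Poisson interval 0.228 to 0.946) and 47.6 CPM in the Myh11 cells. Pln (phospholamban, which restrains the calcium pump of the reticulum) was 0.277 and 55.2 CPM, and Cacna1h, a T-type calcium channel, 3.76 and 68.0 CPM. With all members, Casq2 (calsequestrin, a calcium store protein) was close in both, at 59.2 and 53.8 CPM, and so was Ano1, a calcium-activated chloride channel, at 95.04 and 83.8 CPM. Their values without endothelial-rich and mixed cells, given further on, were higher in the pericytes.

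Receptors of vessel tone split between the kinds. Ednrb, the endothelin B receptor, was 270 CPM in the pericytes of mouse 1 and 16.7 CPM in the Myh11 cells (log2 4.11), with pericytes at 0 to 1613 CPM (median 96.4) and VSMC at 0 to 348 CPM (median 0). Ednra, the endothelin A receptor that constricts vessels, was alike at 241 and 333 CPM. Agtr1a, the angiotensin II receptor, was 100.96 and 30.7 CPM, and 2 of 40 VSMC reached 10 CPM against 15 of 25 pericytes of mouse 1 and all 8 of mouse 2. Npy1r, the neuropeptide Y receptor of sympathetic constriction, went the other way, with 1.16 CPM in pericytes and 56.9 CPM in Myh11 cells. S1pr3, a sphingosine-1-phosphate receptor, was 55.0 and 329 CPM with all members. Over the receptor list, 3 of 10 genes were past the fold in the pericytes and 4 in the Myh11 cells; S1pr1 counted among the 3 and was 1049 CPM in the EC of mouse 1, against 2.83 CPM in the pericytes with few endothelial reads described below.

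The cyclic nucleotide enzymes leaned to the Myh11 cells with 5 of 13 past the fold and 0 in the pericytes. Gucy1a1 and Gucy1b1, the subunits of the nitric oxide receptor, were short of the fold with all members, at 293 and 477 CPM and at 40.1 and 81.9 CPM. Pde3a, a phosphodiesterase that breaks down cyclic AMP, was 14.9 and 229 CPM, and Pde5a, which breaks down cyclic GMP, 7.75 and 32.7 CPM.

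Pericyte markers outside the rule were a weaker divide than the contractile genes. Of 13 measured, 4 were past 2.6-fold in the pericytes (Abcc9, Vtn, Art3 and Ebf1) and 2 in the Myh11 cells (Rgs4 and Cspg4), with a median log2 of 0.36. Abcc9, the regulatory subunit that joins Kcnj8 in the potassium channel, was 18.8 to 4556 CPM in the pericytes of mouse 1 (median 634), 255 to 1733 CPM in those of mouse 2 (median 753), and 0 to 1533 CPM in VSMC (median 1.44). All 33 of these pericytes, but 7 of 40 VSMC, had 10 CPM or more, so the groups overlapped through a few VSMC. The genes of the 2 channel subunits are neighbours, Kcnj8 at chr6:142564837-142571614 and Abcc9 at chr6:142587862-142702315 (mm10), and their levels correlated across the 78 mural cells of mouse 1 (r 0.80, rho 0.73), where Kcnj8 was part of the choice. Vtn (vitronectin, an adhesive plasma and matrix protein) was 239 and 74.9 CPM, and Art3, an ADP-ribosyltransferase family member, 150 and 32.8 CPM. Rgs4, the neighbour of Rgs5 on chromosome 1, was 72.3 CPM in the pericytes of mouse 1 and 443 CPM in the Myh11 cells, yet 466.3 CPM in the pericytes of mouse 2. Notch3, the mural Notch receptor, was present in both kinds at 364 and 619 CPM.

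**Figure D2:**
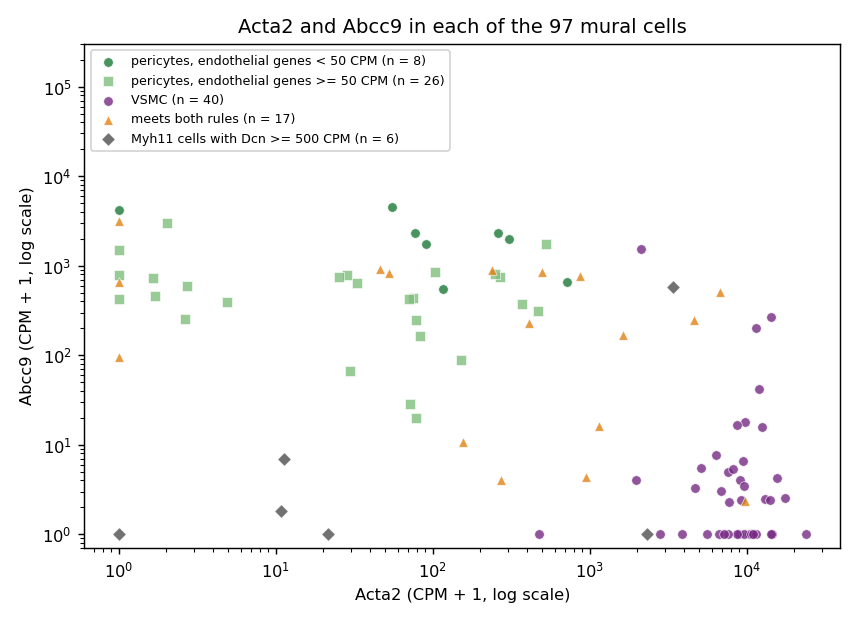
Each point is 1 of the 97 mural cells, placed by Acta2 (x axis) and Abcc9 (y axis) in CPM + 1 on log axes and marked by kind. The 34 pericytes lie at high Abcc9 and Acta2 no higher than 711 CPM, and most of the 40 VSMC at high Acta2 and Abcc9 below 10 CPM. The 17 cells that met both rules spread over these positions and between them.

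Endothelial reads and mixed cells moved with these counts, and the counts were run again without them. The pericytes held reads of endothelial genes: Pecam1, Ptprb, Cdh5, Tie1 and Cldn5 together were 4.44 to 8813 CPM (median 837) in the 34 pericytes, against 0 to 63.6 CPM (median 9.18) in the VSMC, 0 to 938 CPM (median 3.31) in the Pdgfra-positive cells and 63.2 to 19465 CPM (median 5003) in the EC. Every one of the 12 endothelial markers was past the fold in the pericytes (median log2 3.66), and no pericyte was without an endothelial read. The 8 pericytes below 50 CPM (4.44 to 23.5 CPM, all of mouse 1, median 328681 reads) are called low-endothelial pericytes here. Of mouse 1, 12 cells that met both rules and 3 Dcn-rich cells stood on the other side of the comparison. The part of the endothelial reads in the results was not tested, and values without those cells follow.

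In the 8 low-endothelial pericytes against the 37 VSMC of mouse 1 with few endothelial reads, 375 of 1805 genes (20.8%) were past 2.6-fold in the pericytes and 615 (34.1%) in the VSMC. The scaling mattered here: edgeR's trimmed mean of M-values (TMM) raised every log2 value by 0.71 over scaling by library totals alone, under which 198 genes were past the fold in the pericytes and 782 in the VSMC. Fold changes below are TMM-scaled and levels in CPM are not. Of the 517 genes higher in all pericytes only 100 still had a value, 77 of them past the fold and 13 with the sign turned; of the 657 higher in all Myh11 cells, 453 still had a value, 329 past the fold and 46 turned. The contractile list kept 22 of 26 genes higher in VSMC and 0 in pericytes (median log2 -2.95), and the ion channels 6 and 1 of 9. The calcium list went to 3 and 1 of 8. The pericyte-side genes of these lists were Ano1, at 189 and 71.6 CPM (log2 2.06, and 1.36 with library totals, short of the fold), and Casq2, at 120 and 70.7 CPM (1.42, and 0.72 with library totals). Of 12 pericyte markers, 8 were past the fold in pericytes and 1, Rgs4, in VSMC (median 1.69), and 5 and 1 with library totals alone. Abcc9 then stood at 2672 and 64.8 CPM (log2 6.02), Vtn at 515 and 5.65 CPM (7.19), Art3 at 215 and 0.362 CPM (9.87) and Steap4, a metalloreductase, at 343 and 2.58 CPM (7.74), where the second value of each pair is that of all 38 VSMC of mouse 1. Vtn ran from 0 to 1263 CPM in the 8 pericytes. The highest value was that of the deepest of them, a cell of plate 171 with 876423 reads. Notch3, at 1067 and 632 CPM, passed the fold with TMM (log2 1.45) and not with library totals (0.75), and so did Gucy1b1, at 76.7 and 45.2 CPM (1.42 and 0.71). Notch3, Gucy1b1 and Gucy1a1 (-0.61 to 0.69) had all been lower in pericytes with all members, as had Mcam (-1.24 to 0.26) and Heyl (-0.16 to 1.16). Cspg4 was no longer past the fold in VSMC (-0.18), and of 12 cyclic nucleotide enzymes 1 was past it in pericytes and 3 in VSMC (0 and 4 with library totals alone).

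Ednrb kept its direction at 365 and 7.10 CPM (log2 6.34), although only 3 of the 8 low-endothelial pericytes had it at 10 CPM or more. Npy1r kept its own at 0.628 and 81.1 CPM (-5.76), and Myocd at 2.20 and 642 CPM (-7.54). Ednra, at 544 and 321 CPM, was past the fold with TMM (log2 1.43) and not with library totals (0.72), after -0.37 with all members. S1pr3 (-0.63) and Pde5a (-0.88) were no longer past the fold in VSMC. Kcna5, a voltage-gated potassium channel, had been level in all members (-0.26) and was 0.314 CPM in the low-endothelial pericytes against 72.6 CPM in VSMC (-5.54), with 47.5 CPM in EC.

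Matrix genes depended on which cells were compared. With all members, 11 of 26 interstitial matrix genes were past 2.6-fold in the Myh11 cells and 1 in the pericytes (median log2 -1.23). Without the doubtful cells, 9 of 15 were past it in the pericytes and 2 in VSMC (median 2.24), and 8 and 3 with library totals alone. Dcn itself was at 19.2 CPM in the pericytes, 389 CPM in the 53 Myh11 cells and 34.1 CPM in the 38 VSMC of mouse 1. Dcn in the 21 pericytes of plate 172 was 8.45 to 69.7 CPM and in the 6 EC of that plate 10.1 to 49.6 CPM, while on plates 171 and 874 the pericytes had 0 to 3.45 CPM.

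Postn (periostin, a matrix protein of remodelling tissue) was 2013 CPM in the low-endothelial pericytes and 60.5 CPM in VSMC (log2 5.71), with 20.8 to 4972 CPM in the 8 cells and a median of 5.97 CPM in VSMC. Col6a2, a chain of collagen VI, was 2257 and 160 CPM, Col3a1 (fibrillar collagen III) 300 and 22.2 CPM, and Col1a1 (collagen I) 382 and 117 CPM. With all members the log2 values of Col3a1 and Col1a1 had been -1.35 and -1.31, and they were 4.43 and 2.37 here. On the VSMC side stood Eln (elastin, the elastic fibre of arteries) at 1.89 and 199 CPM and Thbs1 (thrombospondin 1) at 2.20 and 155 CPM, and both also differed so with all members.

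The basement membrane was divided by chain. In the low-endothelial pericytes 7 of 14 genes were past the fold and in VSMC 4 (median log2 1.01), against 2 and 7 of 18 with all members, and 6 and 4 with library totals alone. Lamb1 (laminin beta 1) was 336 and 3.48 CPM, Lama2 (laminin alpha 2) 262 and 2.67 CPM, and Col4a1 (collagen IV) 708 and 141 CPM in low-endothelial pericytes and VSMC. Cell by cell, Lamb1 ran from 2.97 to 917 CPM in those pericytes, again highest in the deepest cell. Lama5 (laminin alpha 5) went the other way at 6.598 and 245 CPM, and 33 of 40 VSMC had 10 CPM or more. With all pericytes of mouse 1 Lama5 was 67.9 CPM, and in the EC 77.1 CPM. Among integrins, the laminin receptor subunit Itga3 was 0.628 and 88.6 CPM, and Itga7, another laminin receptor subunit, 62.2 and 150 CPM, short of the fold.

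Signals between endothelium and mural cells had genes on both sides. With all members 8 of 25 were past the fold in the pericytes and 7 in the Myh11 cells, and without the doubtful cells 6 and 7 of 18 (1 and 7 with library totals alone). Cxcl12, the chemokine that holds blood and progenitor cells, was 508 CPM in the low-endothelial pericytes and 9.58 CPM in VSMC (log2 6.40). In the low-endothelial cells it ran from 6.38 to 1413 CPM, highest in the deepest cell. Pooled Cxcl12 was higher, at 1453 CPM, in the EC, and 1184 CPM in all pericytes of mouse 1. Nrip2, a nuclear receptor interacting protein, was 22.9 and 457 CPM. Hey2, a target of Notch, was 0.628 and 39.5 CPM, while Heyl, another Notch target, was similar at 129 and 91.3 CPM. Tgfb3 (a transforming growth factor) was 13.5 and 203 CPM, and Fgf1 10.997 and 133 CPM. Gja4 (a connexin, which couples endothelium and mural cells) was similar at 86.1 and 165 CPM.

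Of 16 transcription factors, 3 were past the fold in the pericytes and 5 in the Myh11 cells, and 2 and 6 of 13 without the doubtful cells (1 and 7 with library totals alone). Hic1, a repressor that marks quiescent mesenchymal progenitors, was 371 CPM in low-endothelial pericytes and 0.362 CPM in VSMC; it was at 10 CPM or more in 5 of those 8 pericytes, 0 of 40 VSMC and 1295 of 2128 Pdgfra-positive cells. Ebf1, which acts in adipocyte and B cell development, was 89.5 and 37.3 CPM (log2 1.93, and 1.23 with library totals, short of the fold). Epas1 and Foxs1, hypoxia-inducible factor 2 alpha and a forkhead factor of mural cells, were alike, at 407.5 and 347 CPM and at 40.8 and 47.9 CPM.

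**Figure D3:**
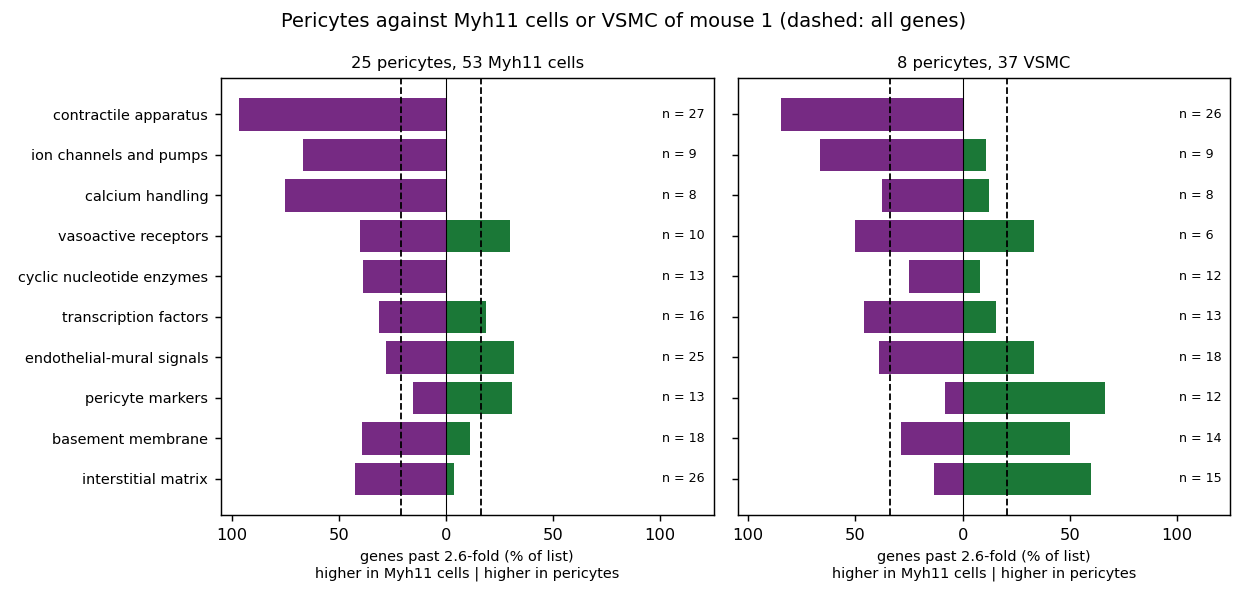
Bars show the share of each gene list, in percent, that was more than 2.6-fold higher in the pericytes (right) or in the Myh11 cells (left) of mouse 1, and dashed lines the share over all genes. Left panel, all 25 pericytes and 53 Myh11 cells; right panel, the 8 low-endothelial pericytes and 37 VSMC: the contractile list points to VSMC in both, and the pericyte markers and both matrix lists lean to the pericyte side in the right panel. Values are TMM-scaled.

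The genes of largest fold differed in how many cells carried them. On the VSMC side Wfdc1, a secreted protease inhibitor-like protein, was at 10 CPM or more in 32 of 53 Myh11 cells, Fbxl22 (an F-box protein of the sarcomere) in 28, Perp in 25, P2rx1 in 25, Xirp1 (an actin-binding repeat protein of muscle) in 23, Aldh18a1 in 19, Lhcgr and Kcnk3 (a background potassium channel) in 17, Sgca (alpha sarcoglycan) in 15 and Rasl10b in 11. On the pericyte side all reads of Pcdhb8 came from 1 of the 25 cells, as did 99.9% of those of Vsig10l, 95.5% of Hba-a2 (a haemoglobin chain) and 94.3% of Axin2. Ccdc85a was at 10 CPM or more in 9 cells, Aplnr (the apelin receptor) and Cmpk2 in 7, Rps6ka1 in 5, Mfsd2a in 4 and Ighm in 2. In the 8 low-endothelial pericytes, Rps6ka1, Pcdhb8 and Ccdc85a reached 10 CPM in 1 cell each and the other 7 in 0. In the EC of mouse 1, Hba-a2 was 3265 CPM, Aplnr 114 CPM, Ccdc85a 46.6 CPM, Cmpk2 36.3 CPM and Rps6ka1 29.4 CPM. Ighm was 20.8 CPM there, Vsig10l 14.6 CPM, Mfsd2a 12.8 CPM, Axin2 8.32 CPM and Pcdhb8 0.0237 CPM.

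The 17 cells that met both rules, a group set by the choice itself, spread over the ranges of both kinds. Their Acta2 ran from 0 to 9760.5 CPM (median 408) and their Abcc9 from 1.35 to 3177 CPM (median 244), and 12 of 17 had Kcnj8 at 10 CPM or more. Myocd was at 10 CPM or more in 6 of them, Art3 in 14 and Cxcl12 in 16. Their endothelial reads were 2.71 to 7039 CPM (median 102). The pooled value of Rgs4 in the 12 such cells of mouse 1 was 394 CPM and that of Gja4 302 CPM, beside 515 and 165 CPM in the VSMC of that mouse. Gja4 was higher in these cells than in either kind of that mouse.

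Against the Pdgfra-positive cells, pericytes could be compared in 2 animals, mouse 1 and mouse 2. Fold changes here come from reads summed per kind and animal, fitted with edgeR's quasi-likelihood test with the animal as a block and Benjamini-Hochberg adjustment. With 2 animals the test had little power: it recovered 0% of 200 genes planted at 8-fold in simulated counts. Thus 0 calls do not show that genes did not differ. It called 0 of 9081 genes (0.0%), with the smallest adjusted p at 0.0865 (32 genes, Notch3 among them) and 1219 genes at an unadjusted p under 0.05. The likelihood ratio test, which the study used, called 1062 genes and DESeq2 called 1261. The description below counts genes more than 2.6-fold higher in the pericytes of both animals, which held for 515 of 9081 genes (5.67%), or lower in both, which held for 1174 (12.9%). The 2 kinds did not overlap between animals for 4298 genes (47.3%). The pericytes of mouse 2 and its Pdgfra-positive cells sat on different plates.

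Of 14 pericyte markers outside the rule, 11 were higher in the pericytes of both animals and 0 lower, and all 11 had an unadjusted p under 0.05 (edgeR quasi-likelihood, median log2 of the list 4.50 against -0.24 over all genes). Notch3 was 364 and 370 CPM in the pericytes of mouse 1 and mouse 2 and 7.63 and 5.76 CPM in their Pdgfra-positive cells, a log2 fold change of 5.84 ± 0.51. The error given is the log2 fold change divided by the square root of the test's F value. It is not a spread between the 2 animals. Abcc9 was 969 and 697 CPM against 12.1 and 11.4 CPM (6.17 ± 0.58 by the same measure, adjusted p 0.0893 in edgeR). Mcam, an adhesion molecule of vessels, was 128 and 321 CPM against 2.80 and 0.178 CPM, and Cspg4 (the NG2 proteoglycan) 79.2 and 76.2 CPM against 14.7 and 3.41 CPM. Ndufa4l2 and Cox4i2, respiratory chain isoforms linked to hypoxia, were 140 and 463 CPM against 5.23 and 21.5 CPM, and 64.3 and 132 CPM against 0.308 and 0.150 CPM. Vtn differed least of the 11, at 239 and 349 CPM against 64.4 and 98.6 CPM. Steap4 and Ebf1 were among the 3 that did not pass in both animals.

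Of 25 receptors, 7 were higher in both animals and 6 lower. Ednrb was 270 and 101.1 CPM against 0.792 and 0.0208 CPM, and Ednra 241 and 229 CPM against 34.3 and 27.8 CPM. Agtr1a was 100.96 and 354 CPM against 15.1 and 45.2 CPM. Ano1 was 95.04 and 226 CPM against 2.06 and 0.332 CPM. Of the signals, 8 of 24 were higher and 3 lower; Heyl was 88.4 and 336 CPM against 18.9 and 19.7 CPM, and Gja4 149 and 279 CPM against 0.847 and 0.0121 CPM. Dll4, Hey1, Notch1 and Eng were higher too, and so were 11 of the 12 endothelial markers (median log2 8.96), whose part in these values was not tested.

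Of 20 contractile genes, 8 were higher in both animals and 1 lower (median log2 0.93). Acta2 was 84.6 and 135 CPM against 36.0 and 34.1 CPM, and Myl9 375 and 596 CPM against 57.3 and 95.8 CPM. These counts are TMM-scaled, which added 0.29 to the log2 values of mouse 1. Without it, the Acta2 levels of mouse 1 are short of 2.6-fold. In that mouse the pericytes of plate 171 had at most 1.73 CPM of Acta2. Tpm2 was 66.5 and 174 CPM against 18.9 and 44.3 CPM. None of the 7 calcium-handling genes passed in either direction in both animals.

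Fibroblast genes stood on the other side. All 14 fibroblast markers were lower in both animals (median log2 -9.09), and so were 20 of 28 interstitial matrix genes (median -3.25), while 2, Postn and Aspn, were higher. Dcn was 19.2 and 0.637 CPM against 3876 and 12745 CPM. Col1a1 was 108 and 161 CPM against 2471 and 2228 CPM, Fn1 (fibronectin) 9.02 and 30.7 CPM against 1432 and 840 CPM, and Lum (lumican) 1.61 and 0 CPM against 355 and 2183 CPM. Postn was 875 and 4085 CPM against 349.5 and 554 CPM, and Aspn (asporin) 113 and 201 CPM against 38.8 and 29.0 CPM. In mouse 1 Postn passed 2.6-fold with TMM scaling only. Of 22 basement membrane genes 3 were higher and 7 lower, and Col4a1 was on neither side, at 267 and 799 CPM against 348 and 420.5 CPM.

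The Myh11 cells could be set against Pdgfra-positive cells in mouse 1 only, with no test. Of 9199 genes, 2799 (30.4%) were past 2.6-fold: 1040 (11.3%) were higher in the Myh11 cells and 1759 (19.1%) lower; when libraries were scaled by their totals alone these were 722 and 2233. All 27 contractile genes were higher (median log2 4.48 against -0.05 over all genes), as were 14 of 16 cyclic nucleotide enzymes, 9 of 12 ion channels, 7 of 11 calcium genes, 10 of 14 pericyte markers, 16 of 28 endothelial-mural signals and 11 of 26 transcription factors. On the other side 20 of 28 interstitial matrix genes and 13 of 14 fibroblast markers were lower.

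Values of the 38 VSMC of mouse 1 give the contrast without the doubtful cells. Acta2 was 9467 CPM against 36.0 CPM in the Pdgfra-positive cells, and 19285 CPM in the 2 VSMC of mouse 8. Notch3 was 632 CPM against 7.63 CPM, Mcam 383 against 2.80 CPM, Rgs4 515 against 0.830 CPM and Gucy1a1 552 against 13.8 CPM, and the VSMC of mouse 8 had 328, 827, 314 and 494 CPM of these genes. Lama5 was 245 against 0.154 CPM, Itga7 150 against 3.03 CPM and Nrip2 457 against 0.297 CPM. Fn1 was 46.4 against 1432 CPM, Fbn1 (fibrillin 1) 12.9 against 1752 CPM, and Col3a1 22.2 against 2356 CPM. Lamb1 was 3.48 against 417 CPM and Nid1 (nidogen, a linker of the basement membrane) 112 against 1389 CPM.

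The genes of largest fold in the Myh11 cells over Pdgfra-positive cells were Nrarp (a Notch target), Asb2, Rasl10b, Myom1 (myomesin), Susd5, Gper1 (an oestrogen receptor of the G-protein-coupled kind), Nrip2, Abcc8, Corin and Lama5. Nrip2 was at 10 CPM or more in 43 of 53 cells, Lama5 in 36, Myom1 in 27, Asb2 and Susd5 in 22, Nrarp in 20, Rasl10b in 11, Abcc8 in 10, Gper1 in 7 and Corin in 4, where 1 cell held 87.2% of the Corin reads. The genes of largest fold the other way were Asap3, Kcnn3, Rtl3, Spon2, Adamts16, Pamr1, Ackr2, Col4a4, Hp and Itga11. Pamr1 was at 10 CPM or more in 103 and Itga11 (a collagen receptor subunit) in 99 Pdgfra-positive cells of mouse 1, and their pooled levels in Myh11 cells were 0.411 and 0.917 CPM.

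**Figure D4:**
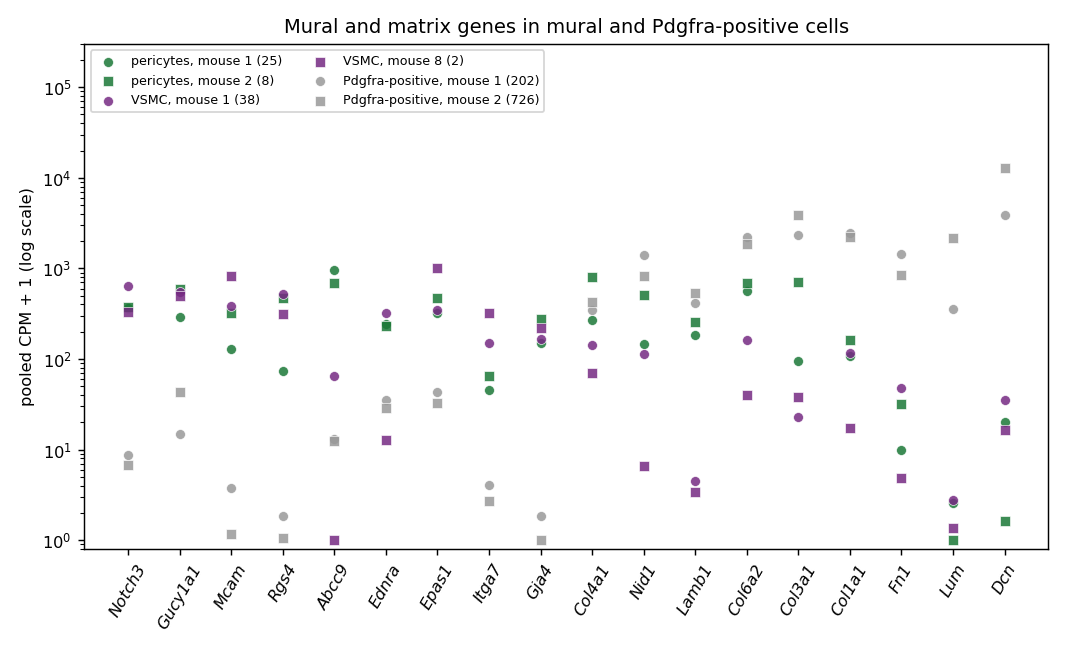
Pooled CPM + 1 on a log axis for 18 genes in pericytes (green), VSMC (purple) and Pdgfra-positive cells (grey); circles are mouse 1, squares mouse 2 or, for VSMC, mouse 8, with the number of cells in brackets. Notch3 to Gja4 are higher in the pericytes of both animals than in Pdgfra-positive cells, Lum and Dcn are low in both mural kinds, and Lamb1 and Col6a2 are lower in VSMC than in pericytes.

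Of 17 immediate early genes, 0 passed in both animals in pericytes against Pdgfra-positive cells, and 1 of 16 was past the fold in pericytes and 2 in Myh11 cells when these were compared. Nr4a1 was the higher in Myh11 cells, at 4804.5 CPM against 1259 CPM in pericytes and 976 CPM in Pdgfra-positive cells of mouse 1, and 6 of 17 such genes were past the fold in Myh11 cells over Pdgfra-positive cells. Of the lists for other cells, macrophage and leukocyte markers had a summed median of 0 CPM in both kinds, with highest sums of 86.6 CPM in a pericyte and 3417 CPM in a VSMC. The Schwann cell gene Sox10 was at 0 in all mural cells but 1 Dcn-rich cell (1.46 CPM), and Prox1, the lymphatic factor, was at 0 in all Myh11 cells and all pericytes of mouse 1.

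The study asked whether lipid and adipogenic transcripts in pericytes come with endothelial RNA, by leaving out pericytes positive for the 5 endothelial genes. It reported low Pparg, Plin2 and Fabp4 in the pericytes that were left. Its text gives no level for positive, and no pericyte had 0 such reads here. The 8 low-endothelial cells, set by a limit of 50 CPM, take their place. Their values are therefore not at the study's own limit. Fabp4, the fatty acid binding protein of adipocytes and capillary EC, was 1354 CPM pooled over those 8 (cells at 14.8 to 2978, median 1415), 2043 CPM over the 17 endothelial-rich pericytes of mouse 1 (3.02 to 5521, median 2003), and 14598 CPM over the 8 of mouse 2 (5070 to 28204, median 11529). It was 164 CPM over the 40 VSMC (0.543 to 773, median 52.8), 18.8 CPM over the Pdgfra-positive cells of plate 172, and 4714 and 15647 CPM over the EC of mouse 1 and mouse 2. Fabp4 in the low-endothelial pericytes was pooled above VSMC, with overlapping cells, and the order of mouse 1 and mouse 2 was the same in pericytes and EC.

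Cd36, a fatty acid transporter, was 1108 CPM in the low-endothelial pericytes, 3007 and 6798 CPM in the endothelial-rich pericytes of mouse 1 and mouse 2, 85.6 CPM in VSMC and 6404 CPM in the EC of mouse 1. Plin2, a lipid droplet coat protein, was 168, 141 and 461 CPM in the same 3 groups of pericytes, 19.5 CPM in VSMC and 47.2 CPM in the Pdgfra-positive cells of plate 172. Pparg, the master regulator of adipocyte formation, was 40.2, 49.99 and 88.0 CPM in the 3 groups, 7.61 CPM in VSMC, 2.06 CPM in the Pdgfra-positive cells of plate 172, and 70.3 and 226 CPM in the EC of mouse 1 and mouse 2. It was at 0 in 5 of the 8 low-endothelial pericytes and at 10 CPM or more in 2, so that its pooled level rested on few cells. Gpihbp1, which carries lipoprotein lipase across capillary endothelium, was 20.1, 299 and 1493 CPM. Lpl, lipoprotein lipase itself, was 29.53, 70.81 and 310.5 CPM in the 3 groups and 28.02 CPM in VSMC. Unlike Plin2 and Pparg, Lpl was higher in the Pdgfra-positive cells of plate 172, at 265.1 CPM, than in the low-endothelial pericytes. It was at 10 CPM or more in 182 of those 200 cells and in 2 of the 8 low-endothelial pericytes. Adipoq (adiponectin, made by adipocytes) was 0 in the low-endothelial pericytes and in VSMC and 161 CPM in the pericytes of mouse 2.

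Across the 25 pericytes of mouse 1 the endothelial reads correlated with Ly6a (r 0.81, rho 0.63), Cxcl12 (0.66 and 0.50), Fabp4 (0.14 and 0.43) and Cd36 (0.23 and 0.58). By r the last 2 were far lower than Cxcl12, by rho Cd36 was above it. The reads ran against Abcc9 (-0.61 and -0.53). The 25 cells share an animal and their reads per cell, and these values are a description.

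Fabp4 split those 25 pericytes in a way that was noticed after the values were seen. In 9 cells, all on plate 172, it was 3.02 to 19.97 CPM, and in the other 16 it was 1357 to 5521 CPM, with none between. The 9 cells had Cd36 at 4.53 to 41.6 CPM, against 581 to 6760 CPM in the 16, and Ednrb at 162 to 1613 CPM (median 511), against 0 to 587 CPM (median 53.1). Postn had a median of 6.28 CPM in the 9 and 578 CPM in the 16, with overlapping ranges, and Pparg was 0 to 2.79 CPM in the 9 and 0 to 213 CPM in the 16. Endothelial reads were 4.44 to 651 CPM (median 493.2) in the 9 and 4.68 to 2380 CPM (median 928) in the 16. Among the 17 endothelial-rich pericytes they ran with the split: the 6 cells low in Fabp4 had 222 to 651 CPM, and 10 of the 11 others lay above them. Among the 8 low-endothelial pericytes, where the split was also there, the ranges of endothelial reads overlapped. Of these 8, 3 had Fabp4 at 14.8 to 19.97 CPM and Ednrb at 760 to 1307 CPM, and 5 had Fabp4 at 1357 to 2978 CPM and Ednrb at 0 to 3.87 CPM. The pericytes of mouse 2 all had Fabp4 at 5070 CPM or more, and their Ednrb was 0 to 293 CPM.

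**Figure D5:**
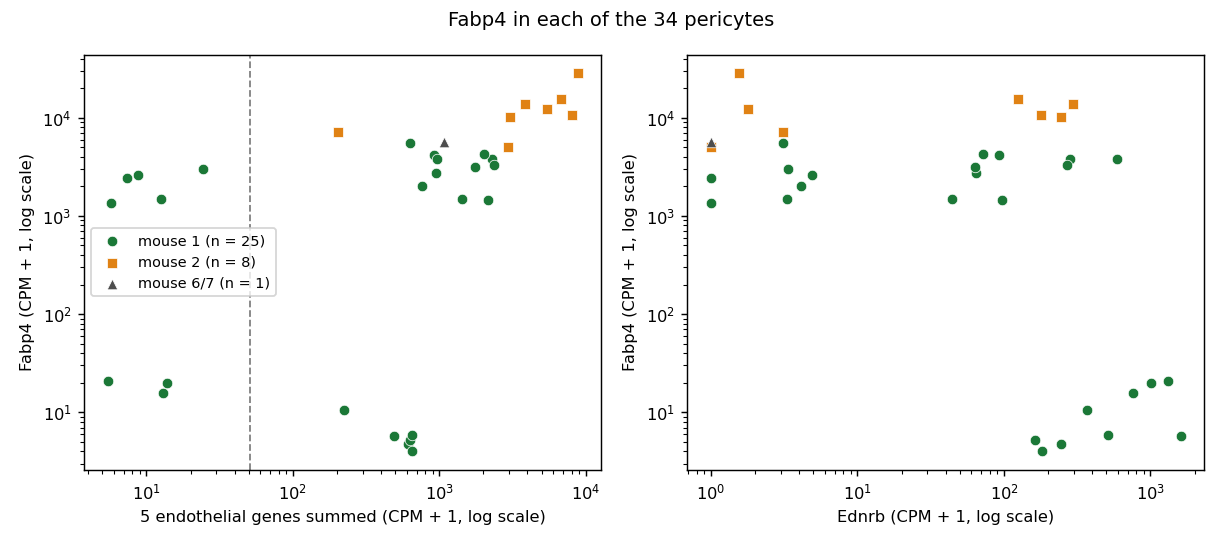
Fabp4 (y axis, CPM + 1, log scale) in each of the 34 pericytes against the summed 5 endothelial genes (left; the dashed line marks 50 CPM) and against Ednrb (right), marked by mouse. In both panels 9 pericytes of mouse 1 lie at 19.97 CPM of Fabp4 or less, on either side of the dashed line, and each of these has Ednrb at 162 CPM or more.

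Between the animals, the 8 pericytes of mouse 2 had higher pooled levels than the 25 of mouse 1 for Steap4 (1253 against 139 CPM), Postn (4085 against 875 CPM), Rgs4 (466.3 against 72.3 CPM), Itga1 (the collagen receptor subunit, 513 against 82.7 CPM) and Kcne4 (a potassium channel subunit, 241 against 34.2 CPM). Abcc9 (697 against 969 CPM), Notch3 (370 against 364 CPM) and Ednra (229 against 241 CPM) were close. The endothelial reads of the 8 cells were 201 to 8813 CPM (median 4652). With 1 animal of each sex these values were not tested.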

How the data were processed

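The authors deposited 1 table of whole-number read counts per gene and cell for all plates: Smart-seq2 libraries were aligned with STAR to mm10 and quantified with Salmon (versions not given in the sources used here), and the authors left out cells and genes by depth, spike-in and mitochondrial share and cells mixed with another class. All 23507 gene rows of 3261 cells on 11 plates were used; 72 spike-in rows (1.98% of reads) stayed out of library sizes, and 0 columns belonged to no labelled plate. Cells had 149931 to 3548334 reads (median 629323). Reads are not unique molecules, so intervals cover counting error only.

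Reads were summed per kind and mouse identifier, for identifiers with at least 5 cells of a kind, and scaled by TMM. With 2 animals (pericytes against Pdgfra-positive cells) edgeR 4.0.16 in R 4.3.3 fitted quasi-likelihood models with the animal as a block, on genes above 600 reads in at least 2 sums, and called adjusted p below 0.05 with a fold above 2.6. With 1 animal the log2 fold of the sums is given without a test, on genes above 600 reads in at least 1 of the 2 sums, a change from the planned filter, which would have dropped genes of a single kind. A sum below 3 reads was set to 3 for a fold. Levels are CPM of the pooled cells, without TMM scaling; TMM moved the log2 values by 0.09 (pericytes against Myh11 cells), 0.33 (Myh11 cells against Pdgfra-positive cells) and 0.29 and -0.20 (pericytes against Pdgfra-positive cells in mouse 1 and mouse 2), and by 0.71 where endothelial-rich, double-rule and Dcn-rich cells were left out. The test was run on simulated counts of the 2-animal design, where it recovered 0% of 200 genes planted at 8-fold. The animal pairs samples because both kinds come from the same animal. Mitochondrial, endothelial and other marker sums, cells thinned to 150000 reads and the CArG search used Python 3.11.15 with pandas 2.3.3; DESeq2 1.42.0 was an alternative.

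The members and gene lists were chosen with earlier results of these data known. Named are the 6 genes of the rule, members of each list (2 to 6, and further ones chosen after their values were seen), and the 10 genes of largest fold in each direction with at least 20 CPM in the higher kind. Gene positions are those of GENCODE vM21. No doublet caller was run; the authors' removal of mixed cells preceded deposit. The labels of VSMC, cells that met both rules, Dcn-rich cells and low-endothelial pericytes were set after the values were seen.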

Additional observations from a re-analysis of the deposited data

Results flagged for a closer look

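The share of mural cells stood apart in 1 plate of each sex. Among the 4 male plates it was 20.9% on plate 172 and at most 2.24% on the others, and among the 7 female plates it was 4.72% on plate 874 and at most 1.19% on the others. The gap to the next plate took up 0.917 of the male range and 0.749 of the female range, past the critical values of 0.829 for 4 plates and 0.568 for 7 plates. Chance singles out about 1 in 20 such groups, and the plates of a sex differed in gate and animal.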

How the results depend on the processing

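For pericytes against Myh11 cells (1174 genes past the fold), the count moved to 7212 with at least 10 counts in 1 sum, 7704 with no filter, 199 after thinning (fewer genes passed the filter) and 0 with at least 3 cells per mouse identifier, where edgeR could test mice 1 and 2 (2046 genes, 41 at an unadjusted p under 0.05). For Myh11 cells against Pdgfra-positive cells (2799), it moved to 7175, 8161, 842 and 0 under the same settings (the last over 3 mouse identifiers and 9193 genes, 685 at an unadjusted p under 0.05). With at least 3 cells, the Myh11 cells added from mice 2 and 5 were double-rule or Dcn-rich cells, and none was a VSMC. That setting therefore could not compare VSMC in more than 1 animal. For pericytes against Pdgfra-positive cells (0 calls), edgeR called 56 with library totals alone, 1062 by the likelihood ratio test, 468 with at least 10 counts in 2 sums, 789 with no filter, 284 with the limits of the rule doubled and 273 after thinning, and DESeq2 called 1261. Without the replicate block, that is, without pairing by animal, it called 0 (1294 at an unadjusted p under 0.05, and 1219 with it). The other settings, among them size factors by relative log expression (1164, 0 and 2818) and no mural cells of plate 171 (903, 0 and 2798), stayed within 1.5 times. The number of pericytes without endothelial reads was 0, and 8 with a limit of 50 CPM. Among named genes past the fold in pericytes against Myh11 cells, 5 changed sign: Cspg4 (log2 0.085), Kcne4 (0.58) and Ly6a (-1.55) without endothelial-rich cells, Dcn (0.50) and Kcne4 (0.75) without all doubtful cells, and Pparg (-0.42) and Kcne4 (0.51) with at least 3 cells. Of 170 genes of the lists and of largest fold with a value in both, 36 changed sign without all doubtful cells, 10 of them past the fold with all members (27 and 5 with library totals alone). Without endothelial-rich cells alone 46 changed sign, and without Dcn-rich and double-rule cells 10. Without all doubtful cells, 990 genes were past the fold, and 980 with library totals alone, where the share higher in pericytes was 20.2% and not 37.9%. Settings without Dcn-rich or plate 171 cells, those that combine kinds of cells, and the removal of double-rule cells in pericytes against Pdgfra-positive cells were chosen after seeing the data. Leaving out an animal, and for pericytes against Pdgfra-positive cells a minimum of 10 cells or the removal of endothelial-rich cells, left 1 animal and could not be fitted. No test between sexes was run.

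Limits: most members came from 1 animal and 1 plate, VSMC had 2 cells outside that animal, the low-endothelial pericytes were 8 cells of lower depth, and genes below 600 summed reads have no fold here. A pooled level can rest on a single deep cell. Of the 8 low-endothelial pericytes, the deepest had the highest Cxcl12, Lamb1, Vtn and Postn.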
